A study of Mus musculus with 8 samples.

Results

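A set of 16 probe sets, out of 22626 non-control probe sets on the arrays, followed the signal of Pip, which encodes the prolactin-induced protein of saliva and tears, through the lymph nodes (LN) of the study. They were chosen by their measured values: a range of at least 1.5 on the log2 scale over the 8 arrays, and a Pearson r of at least 0.9 with the Pip probe set of largest range over the same arrays. Because every array took part in that selection, the values of the 16 probe sets are given as a description, with no test. Of all probe sets, 208 had the range and 73 had the correlation.

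LN were taken at 8 weeks of age from wild-type (WT) C57Bl/6 mice or from H3RKO mice, which lack the histamine H3 receptor gene Hrh3 through the B6.129P2-Hrh3tm1Twl allele and are labelled with the same strain. Mice were left untreated, or received complete Freund's adjuvant (CFA), an oil emulsion with killed mycobacteria, or CFA together with pertussis toxin (PTX), and injected mice were sampled 24 h later. Each array held RNA of 1 pool of at least 3 mice, female and male. Untreated LN had 2 arrays for WT and 2 for H3RKO mice, while CFA had 1 array for each genotype, as had CFA+PTX. For the CFA+PTX pools the sample titles mention only PTX and the descriptions both agents, and the anatomical site of the LN on the arrays is not given in the sources used here. Values are log2 levels from robust multi-array averaging (RMA), so a step of 1 is a 2-fold step in signal. The level of a probe set depends on its probes, and levels of different probe sets are not amounts of RNA to be set against each other.

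Salivary and lacrimal glands are made of acini, whose cells store secretory proteins in granules and release them with fluid, and of ducts that carry and modify the secretion. Parotid and lacrimal acini are serous and release enzymes and small antimicrobial proteins, while the submandibular gland adds mucins and, from its granular ducts, kallikreins and growth factors. Several secreted proteins of mouse saliva, such as the secretoglobins that form its androgen-binding protein, belong to rodent gene clusters with very similar neighbours.

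All named members encode secreted proteins or belong to families of secreted proteins, except 2310057J18Rik, for which no role is given here. Of the 16 probe sets, 14 pair with 1 gene each, 1 (1459725_s_at) pairs with Dcpp1, Dcpp2 and Dcpp3 together, and 1 (1416325_at) has no gene in the annotation used. Among the lists of gland genes, 11 of the 20 measured secreted proteins of serous acini were members, as were 2 of the 16 measured secreted proteins of submandibular and sublingual glands. None of the 18 measured genes of fluid and ion transport, the 18 transcription and splicing regulators, the 10 granule and exocytosis genes, the 19 genes of epithelial structure or the 11 myoepithelial genes was a member. By these lists, the gland function held by the set was the secretory product, with none of the measured transport, regulatory or structural genes in it. The lists were chosen with earlier results of these data known. The absence also depends on the r threshold, which the transport gene Pigr missed at 0.87 with a range of 3.25.

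The stretch of sequence around the start of each member gene was read from RefSeq (build GRCm38.p6), from 250 bases before to 50 bases after the start, in 18 windows for the 16 genes named by the members. They are shown for Pip, the gene that anchored the set, for Chia1, and for Scgb2b27 and Scgb1b27, which are neighbours on opposite strands with no coding gene between them. In these windows, capitals mark TATAAA (or TTTATA, the same letters read on the other strand) and AGGAAG (or CTTCCT), and the gene strand is printed 5′ to 3′.
Pip, chr6:41847299-41847598, plus strand: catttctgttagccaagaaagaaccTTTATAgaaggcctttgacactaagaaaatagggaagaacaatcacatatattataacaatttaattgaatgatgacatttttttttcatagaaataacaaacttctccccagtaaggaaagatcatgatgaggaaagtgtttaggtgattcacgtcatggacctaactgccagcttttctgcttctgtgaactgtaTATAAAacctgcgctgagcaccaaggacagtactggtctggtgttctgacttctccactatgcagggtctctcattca
Chia1, chr3:106113132-106113431, plus strand: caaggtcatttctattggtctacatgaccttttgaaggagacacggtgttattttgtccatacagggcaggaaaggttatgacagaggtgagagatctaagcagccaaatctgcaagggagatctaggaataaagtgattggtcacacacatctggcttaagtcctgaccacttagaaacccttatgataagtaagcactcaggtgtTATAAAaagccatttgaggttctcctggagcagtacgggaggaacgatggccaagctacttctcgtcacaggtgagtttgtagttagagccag
Scgb2b27, chr7:34013893-34014192, minus strand: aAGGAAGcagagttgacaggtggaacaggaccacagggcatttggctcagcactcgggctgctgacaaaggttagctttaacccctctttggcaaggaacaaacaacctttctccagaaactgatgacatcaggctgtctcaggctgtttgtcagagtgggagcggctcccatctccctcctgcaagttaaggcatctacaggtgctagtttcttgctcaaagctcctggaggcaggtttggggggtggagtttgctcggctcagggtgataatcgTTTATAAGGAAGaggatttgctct
Scgb1b27, chr7:34021231-34021530, plus strand: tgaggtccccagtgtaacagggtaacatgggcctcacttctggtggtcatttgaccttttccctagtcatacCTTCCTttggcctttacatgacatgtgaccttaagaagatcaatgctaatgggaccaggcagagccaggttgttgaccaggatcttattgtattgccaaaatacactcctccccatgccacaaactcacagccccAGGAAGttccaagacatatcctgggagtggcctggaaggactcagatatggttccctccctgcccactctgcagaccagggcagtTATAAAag

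TATAAA on either strand was found in 7 of the 18 windows (38.9%), those of Pip, Chia1, Dnase1, Amy1, Scgb1b27 and Scgb2b27, and in 9.81% of the 12567 windows of all genes. Of the member windows, the one of Pip alone held TATAAA on the gene strand between 40 and 15 bases before the start, and 2.45% of all windows did. AGGAAG, searched on both strands, was in 7 windows (38.9%) against 33.8% of all, and CAGCTG was in the window of Car6 alone (5.56%) against 16.0% of all. ACAAAG on either strand was in the window of Scgb2b27 alone (5.56%) against 15.1% of all, and TGTTTAC was in none of the 18 against 2.75% of all. Amy1 and Dnase1 have 2 windows each, counted separately, although those of Dnase1 overlap and hold the same TTTATA. Dcpp1, Dcpp2 and Dcpp3 lie side by side with no coding gene between them. Their windows are very similar and all are among those with AGGAAG, so the member windows are not independent.

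The signal of the gland proteins was high in 6 of the 8 arrays, far lower in WT untreated pool 1 and lowest in the WT CFA+PTX pool. WT CFA+PTX was the lowest array in 16 of 16 members, and WT untreated pool 1 was the next lowest in 16 of 16. Over all probe sets, these were the lowest 2 arrays in 1213 of 22626 (5.36%), and since the members were selected for following Pip, nothing is read from their count. H3RKO untreated pool 2 was the highest array in 14 members, WT untreated pool 2 in 1 (Dcpp3) and H3RKO CFA+PTX in 1 (Amy1).

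**Figure D1:**
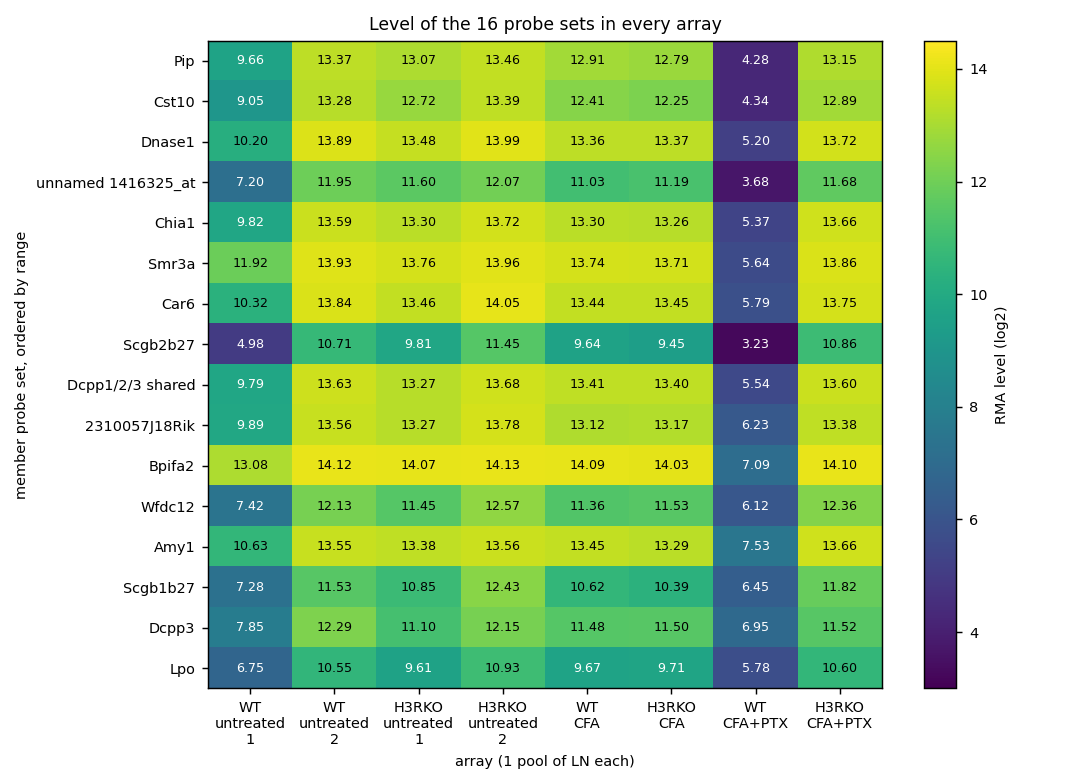
RMA level (log2, colour and printed number) of the 16 member probe sets, in rows ordered by range, in each of the 8 arrays, in columns, each array being 1 pool of LN. The WT CFA+PTX column is the darkest in every row, from 3.23 to 7.53, and the WT untreated 1 column comes next, from 4.98 to 13.08.

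Placed on the median of the members, the arrays ran from 5.71 in WT CFA+PTX and 9.73 in WT untreated pool 1 to 12.98 in H3RKO CFA, 13.02 in WT CFA, 13.17 in H3RKO untreated pool 1, 13.26 in H3RKO CFA+PTX, 13.46 in WT untreated pool 2 and 13.51 in H3RKO untreated pool 2. Among those last 6 arrays, neighbours in this order differed by at most 0.20. Neighbours in a sorted order lie close by the sorting, so no likeness of the arrays is read from this. The median member stood at percentile 23.5 of all probe sets in the WT CFA+PTX array and at percentile 76.2 in WT untreated pool 1. In the other 6 arrays it stood between percentiles 98.8 and 99.4, so that gland products were among the brightest probe sets of these LN samples. In WT CFA+PTX all 16 members lay under the 50th percentile of the array, and in WT untreated pool 1, 6 of 16 did.

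The T cell list (7 genes) had a mean level of 10.79 to 11.08 over the arrays and the B cell list (7 genes) one of 11.29 to 11.56, so that lymphocyte markers were high in every array. In a pool of tissue, fewer cells of a type and less RNA per cell cannot be told apart. The array medians over all probe sets ran from 7.94 to 8.00 and the brightest probe sets from 14.32 to 14.40. The 3′ minus 5′ signal of the actin and Gapdh controls averaged 0.35 in WT CFA+PTX and 0.19 in WT untreated pool 1. In the other arrays it ran from 0.16 to 0.44, and only H3RKO CFA was above WT CFA+PTX. The part of RNA quality in the result was not tested.

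Pip had the largest range of all probe sets, 9.19. Its level was 9.66 and 13.37 in the untreated WT pools, 13.07 and 13.46 in the untreated H3RKO pools, 12.91 (WT) and 12.79 (H3RKO) after CFA, and 4.28 (WT) and 13.15 (H3RKO) after CFA+PTX. The WT CFA+PTX signal was 0.183% of that in WT untreated pool 2, and the WT untreated pool 1 signal was 7.66% of it, while the other 6 arrays stayed within 0.68 of one another. Bpifa2, the parotid secretory protein of the BPI fold family, was at 13.08 and 14.12 in the untreated WT pools, 14.07 and 14.13 in the untreated H3RKO pools, 14.09 (WT) and 14.03 (H3RKO) after CFA, and 7.09 (WT) and 14.10 (H3RKO) after CFA+PTX. Bpifa2 thus lay near the top of the scale in 7 arrays, within 0.11 of one another in 6 of them, and was 1.05 lower in WT untreated pool 1 than in pool 2.

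Among the secreted enzymes were Dnase1, an endonuclease of secretions, Amy1, the salivary amylase that digests starch, Car6, the carbonic anhydrase released into saliva, Chia1, an acidic chitinase, and Lpo, the lactoperoxidase that makes antimicrobial oxidants. Dnase1 was at 10.20 and 13.89 in the untreated WT pools, 13.48 and 13.99 in the untreated H3RKO pools, 13.36 (WT) and 13.37 (H3RKO) after CFA, and 5.20 (WT) and 13.72 (H3RKO) after CFA+PTX. Car6 was at 10.32 and 13.84 in the untreated WT pools, 13.46 and 14.05 in the untreated H3RKO pools, 13.44 (WT) and 13.45 (H3RKO) after CFA, and 5.79 (WT) and 13.75 (H3RKO) after CFA+PTX. Both had r of 0.999 or more with Pip, and in both the WT untreated pool 1 array lay a little above the middle between the lowest and the highest array.

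Chia1 was at 9.82 and 13.59 in the untreated WT pools, 13.30 and 13.72 in the untreated H3RKO pools, 13.30 (WT) and 13.26 (H3RKO) after CFA, and 5.37 (WT) and 13.66 (H3RKO) after CFA+PTX. Amy1 was at 10.63 and 13.55 in the untreated WT pools, 13.38 and 13.56 in the untreated H3RKO pools, 13.45 (WT) and 13.29 (H3RKO) after CFA, and 7.53 (WT) and 13.66 (H3RKO) after CFA+PTX. Amy1 had its highest value in H3RKO CFA+PTX, and in WT CFA+PTX it was at percentile 44.0 of the array. The mouse genome holds several amylase genes of very similar sequence, so the Amy1 signal may include theirs.

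Lpo was at 6.75 and 10.55 in the untreated WT pools, 9.61 and 10.93 in the untreated H3RKO pools, 9.67 (WT) and 9.71 (H3RKO) after CFA, and 5.78 (WT) and 10.60 (H3RKO) after CFA+PTX. It had the smallest range of the set, 5.16, and its WT untreated pool 1 and WT CFA+PTX values were 0.97 apart, whereas those of Dnase1 were 5.01 apart.

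Products named for salivary glands were Smr3a, a submandibular gland androgen-regulated protein, and the demilune cell and parotid proteins Dcpp. Smr3a was at 11.92 and 13.93 in the untreated WT pools, 13.76 and 13.96 in the untreated H3RKO pools, 13.74 (WT) and 13.71 (H3RKO) after CFA, and 5.64 (WT) and 13.86 (H3RKO) after CFA+PTX. It kept 24.7% of the WT untreated pool 2 signal in WT untreated pool 1 and 0.318% in WT CFA+PTX. The probe set shared by Dcpp1, Dcpp2 and Dcpp3 was at 9.79 and 13.63 in the untreated WT pools, 13.27 and 13.68 in the untreated H3RKO pools, 13.41 (WT) and 13.40 (H3RKO) after CFA, and 5.54 (WT) and 13.60 (H3RKO) after CFA+PTX. Dcpp3 probe set 1447456_x_at, whose name ending marks probes that can bind other transcripts, was at 7.85 and 12.29 in the untreated WT pools, 11.10 and 12.15 in the untreated H3RKO pools, 11.48 (WT) and 11.50 (H3RKO) after CFA, and 6.95 (WT) and 11.52 (H3RKO) after CFA+PTX. These overlapping probe sets are not separate evidence on separate genes, and a further probe set, assigned to Dcpp1 alone, fell just outside the set with r of 0.88 and a range of 2.34.

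The members of protease inhibitor families were Cst10, a cystatin, and Wfdc12, a protein with a whey acidic protein core. Cst10 was at 9.05 and 13.28 in the untreated WT pools, 12.72 and 13.39 in the untreated H3RKO pools, 12.41 (WT) and 12.25 (H3RKO) after CFA, and 4.34 (WT) and 12.89 (H3RKO) after CFA+PTX. Wfdc12 was at 7.42 and 12.13 in the untreated WT pools, 11.45 and 12.57 in the untreated H3RKO pools, 11.36 (WT) and 11.53 (H3RKO) after CFA, and 6.12 (WT) and 12.36 (H3RKO) after CFA+PTX. The Wfdc12 signal in WT untreated pool 1 was 3.83% of that in pool 2, close to the 1.55% left in WT CFA+PTX, whereas Cst10 held 5.32% and 0.204%.

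Scgb1b27 and Scgb2b27, whose start regions are printed above, encode secretoglobins of the alpha and beta-gamma kinds that pair in the androgen-binding protein of mouse saliva. Scgb2b27 was at 4.98 and 10.71 in the untreated WT pools, 9.81 and 11.45 in the untreated H3RKO pools, 9.64 (WT) and 9.45 (H3RKO) after CFA, and 3.23 (WT) and 10.86 (H3RKO) after CFA+PTX. Scgb1b27 was at 7.28 and 11.53 in the untreated WT pools, 10.85 and 12.43 in the untreated H3RKO pools, 10.62 (WT) and 10.39 (H3RKO) after CFA, and 6.45 (WT) and 11.82 (H3RKO) after CFA+PTX. Both had their highest value in H3RKO untreated pool 2 and the next highest in H3RKO CFA+PTX, and both spread over 2.00 to 2.05 in the 6 arrays of high signal, the widest spread of any members. Genes of this cluster share sequence, so the probe sets may also report their relatives.

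For the other probe sets no role is given. 2310057J18Rik was at 9.89 and 13.56 in the untreated WT pools, 13.27 and 13.78 in the untreated H3RKO pools, 13.12 (WT) and 13.17 (H3RKO) after CFA, and 6.23 (WT) and 13.38 (H3RKO) after CFA+PTX. The probe set 1416325_at, without a gene in the annotation used, was at 7.20 and 11.95 in the untreated WT pools, 11.60 and 12.07 in the untreated H3RKO pools, 11.03 (WT) and 11.19 (H3RKO) after CFA, and 3.68 (WT) and 11.68 (H3RKO) after CFA+PTX. Both followed the same order of arrays, with WT CFA+PTX lowest and WT untreated pool 1 next.

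The members differed most in how far WT untreated pool 1 carried them. With the lowest array set to 0% and the highest to 100%, this array lay at 13.9% for Scgb1b27, 16.8% for Dcpp3, 18.9% for Lpo, 20.2% for Wfdc12, 21.3% for Scgb2b27 and 41.9% for 1416325_at. It lay at 48.5% to 58.7% for 8 members including Pip, at 75.4% for Smr3a and at 85.0% for Bpifa2. The lower places belonged to probe sets with the lower highest levels. For the 6 members whose highest level was under 13, the place was 13.9% to 41.9%, and for the 10 members at 13 or more it was 48.5% to 85.0%, a division chosen after the values were seen. Over the 16 members the highest level and the place had a Spearman rho of 0.82, given as a description, since all members share the same 8 arrays. The members under 13 also spread more over the other 6 arrays, by 1.04 to 2.05, than the members at 13 or more, by 0.11 to 1.14. The brightest probe sets of each array stood at 14.32 to 14.40, and the part of this upper end in the pattern was not tested.

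**Figure D2:**
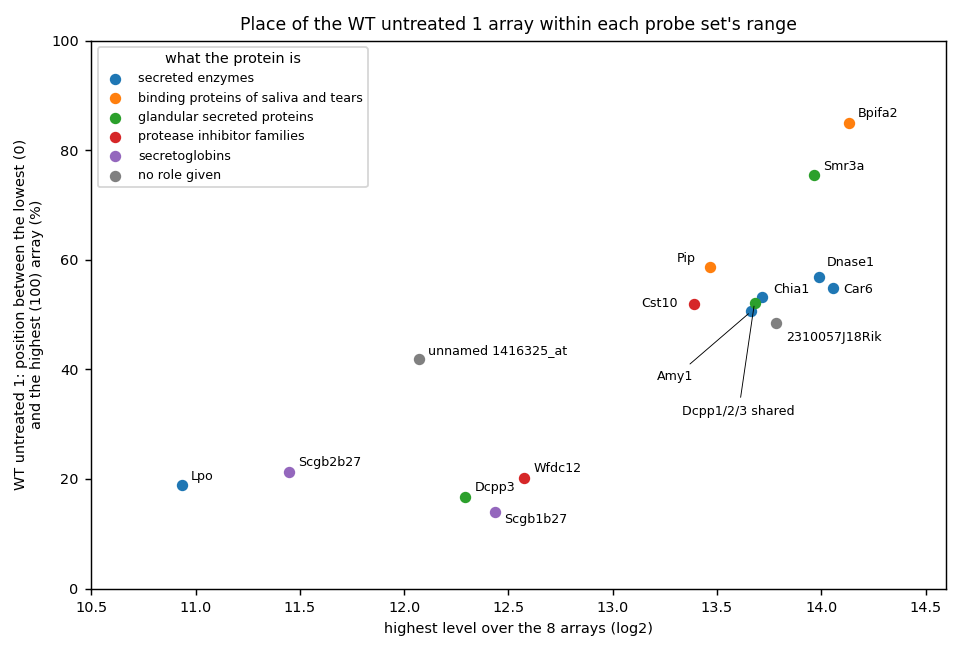
Place of WT untreated pool 1 between the lowest (0) and the highest (100) array, in percent, against the highest log2 level over the 8 arrays, 1 point for each of the 16 members, coloured by what the protein is. The 6 points left of a level of 13 lie between 13.9% and 41.9%, and the 10 points to its right lie between 48.5% and 85.0%.

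Read by the design, the H3RKO and WT pools lay far apart in the members after CFA+PTX and close together after CFA. After CFA+PTX the H3RKO pool was above the WT pool in 16 of 16 members, by 4.57 (Dcpp3, a 23.7-fold ratio of signals) to 8.87 (Pip, 468-fold), with a median difference of 7.80 against -0.02 over all probe sets. In the WT CFA+PTX array 10 of the 16 members lay under percentile 25, Pip at 9.71, Cst10 at 10.2 and Scgb2b27 at 2.17, while the brightest members of the H3RKO array lay near its top of 14.39. How far these WT signals lay above background was not tested, and no order is read from the ratios of the members. Each ratio compares 1 pool with 1 pool and has no replicate check. With the thresholds of the study (unadjusted p under 0.05 and a fold over 2, there on ANOVA p-values) applied to limma p-values, 15 of the 16 were above in H3RKO after CFA+PTX (all but Dcpp3), against 0.265% of all probe sets above and 0.0972% below. Since the same arrays chose the members, that count is no support for a difference between genotypes.

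After CFA the H3RKO pool differed from the WT pool by -0.23 (Scgb1b27) to 0.17 (Wfdc12), with 7 members above 0 and 9 below, and a median of -0.02. None of the 16 met the criterion, which 0.0619% of all probe sets met above and 0.164% below. The WT CFA pool itself stood 3.89 to 8.64 above the WT CFA+PTX pool, so the low level was found in 1 of the 2 injected WT pools.

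In untreated LN the WT pools differed from each other by more than the genotype means did, in 16 of 16 members. WT untreated pool 2 was above pool 1 in 16 of 16 members, by 1.05 (Bpifa2, 2.07-fold) to 5.73 (Scgb2b27, 53.0-fold), with a median of 3.78. H3RKO untreated pool 2 was also above its pool 1 in 16 of 16, by 0.06 to 1.64, with a median of 0.51. These pools also took part in choosing the members, so nothing is read from the counts of members in untreated LN. The mean of the H3RKO pools was above the mean of the WT pools in all 16, by a median of 1.76, but against WT untreated pool 2 alone it was below in 15 of 16, by a median of -0.09. None of the 16 met the criterion in untreated LN, which 0.0751% of all probe sets met above and again 0.0751% below. Over all treatments, in a model with genotype and treatment, no member and no probe set of the 22626 passed an adjusted limma p of 0.05, and 823 had an unadjusted p under 0.05.

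The set rested on the 2 arrays of low signal to a large part. Without the WT CFA+PTX array the rule gave 27 probe sets, 15 of them among the 16, and the added ones included Klk1, Ggh, Pigr, Dcpp1 and Fxyd3. Without WT untreated pool 1 it gave 21, with all 16 among them, and leaving out any other single array gave 16 or 17. Without both arrays, an alternative added after the data were seen, the rule gave 8 probe sets, and of the 16 members only Scgb1b27 and Scgb2b27 were among them, since the other members had ranges under 1.5 over the 6 arrays left. Over those 6 arrays all 16 members still had a positive r with Pip, the lowest being 0.71 for Amy1, and 10 of 16, Pip itself included, had r of at least 0.9, as had 149 of the 22610 probe sets outside the set (0.659%). Cst10 had r of 0.998, Dnase1 and Smr3a 0.97, and Bpifa2 0.93, although Bpifa2 ranged over only 0.11. Those 6 arrays also took part in choosing the members, so these r values describe the set and give no separate support for it.

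No gap in range or r set the members apart from the other probe sets. The smallest range of a member was 5.16, for Lpo, and the largest outside was 4.96, for Prpmp5, a proline-rich salivary protein. Just inside the correlation threshold were Scgb1b27 at 0.91, Lpo and Dcpp3 at 0.93 and Scgb2b27 at 0.94. Just outside it were Ggh, gamma-glutamyl hydrolase, at 0.88, Klk1, the glandular kallikrein, at 0.88, Dcpp1 at 0.88 and Pigr, which carries immunoglobulin A into secretions, at 0.87. Probe sets with the correlation that missed the range were those of Cd24a, with ranges of 1.13 and 0.66, Dusp26 at 1.03 and Tuba4a at 0.70. A further Pip probe set, 1427614_at, had r of 0.78 and a range of 2.84, and was therefore no member.

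Gland genes outside the set shared the low arrays in part. The Klk1 probe set with r of 0.88 was at 7.73 and 11.47 in the untreated WT pools, 11.02 and 12.08 in the untreated H3RKO pools, 10.33 (WT) and 10.73 (H3RKO) after CFA, and 7.55 (WT) and 11.03 (H3RKO) after CFA+PTX. A further Klk1 probe set, 1415837_at, had r of 0.87 and a range of 4.61, but the third, 1455977_x_at, lay between 10.57 and 11.30 in every array, so the Klk1 probe sets disagreed. Prol1, a proline-rich protein of lacrimal and salivary glands, was at 3.37 and 6.13 in the untreated WT pools, 4.99 and 6.91 in the untreated H3RKO pools, 5.69 (WT) and 5.09 (H3RKO) after CFA, and 3.04 (WT) and 6.56 (H3RKO) after CFA+PTX. Prpmp5 was at 4.83 and 9.73 in the untreated WT pools, 8.55 and 9.77 in the untreated H3RKO pools, 7.20 (WT) and 7.74 (H3RKO) after CFA, and 4.81 (WT) and 7.79 (H3RKO) after CFA+PTX. In this Klk1 probe set, Prol1 and Prpmp5 the WT untreated pool 1 and WT CFA+PTX values were within 0.33 of each other and below all other arrays.

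Transport and regulatory genes of the acinus moved less. Aqp5, the water channel of acinar cells, was at 6.87 and 8.85 in the untreated WT pools, 7.69 and 8.78 in the untreated H3RKO pools, 7.55 (WT) and 7.86 (H3RKO) after CFA, and 6.70 (WT) and 7.97 (H3RKO) after CFA+PTX. Bhlha15, the transcription factor also called Mist1 that shapes secretory cells, was at 7.10 and 8.81 in the untreated WT pools, 7.98 and 8.97 in the untreated H3RKO pools, 8.03 (WT) and 8.06 (H3RKO) after CFA, and 6.92 (WT) and 8.41 (H3RKO) after CFA+PTX. Elf5, a transcription factor of glandular epithelium, was at 4.96 and 7.52 in the untreated WT pools, 6.46 and 8.04 in the untreated H3RKO pools, 6.31 (WT) and 6.34 (H3RKO) after CFA, and 5.05 (WT) and 6.81 (H3RKO) after CFA+PTX. As in the members, WT untreated pool 1 and WT CFA+PTX were the lowest arrays in all 3, but the ranges were 2.15, 2.06 and 3.08. Other genes of these lists went the opposite way. The chloride channel gene Ano1 (r of -0.62) and the splicing regulator Esrp2 (r of -0.80) were highest in WT CFA+PTX, at 8.11 and 6.84. The median r with Pip was 0.43 over the 18 transport genes and 0.45 over the 18 regulators.

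Counting genes by their brightest probe set, WT untreated pool 1 and WT CFA+PTX were the lowest arrays in 6 of 18 transport genes, 6 of 18 regulators, 5 of 14 submandibular products and 2 of 9 serous products outside the set, and in 3 of 19 genes of epithelial structure, beside the 5.36% of all probe sets. They were in no case the lowest pair in the 10 granule and exocytosis genes or the 11 myoepithelial genes. The serous products outside the set that had this order were Prpmp5 and Mup5, and 6 of the 9, namely Bpifa1, Bpifb1, Tcn2, Scgb1b2, Obp1a and Prp2, had ranges of at most 0.42. Wfdc18, Prpmp5 and Mup5 met the range (2.65, 4.96 and 2.55) and missed the set by r, at 0.56, 0.81 and 0.69.

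**Figure D3:**
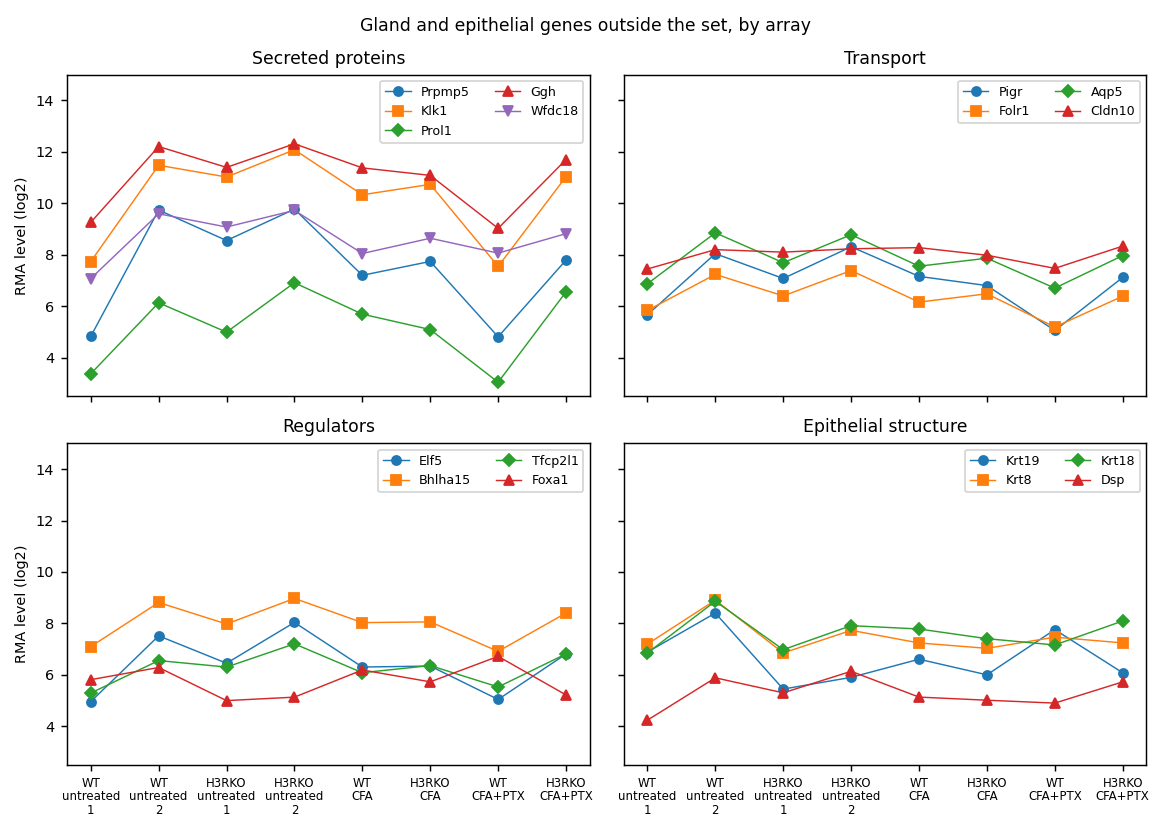
RMA level (log2) of gland and epithelial genes outside the set in each of the 8 arrays, in 4 panels by function, 1 point for each array and 1 line for each gene (Klk1 by the probe set with r of 0.88 and Pigr by the one with r of 0.87). Lines join the arrays for reading and carry no order. Secreted proteins such as Klk1, Prol1 and Prpmp5 are lowest in WT untreated 1 and WT CFA+PTX, while Krt19 and Foxa1 are not.

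Of the genes in the 7 gland lists, 99 lay outside the set. Higher and lower here mean meeting the criterion, an unadjusted limma p under 0.05 and a fold over 2. Of all probe sets, 0.0751% met it above and 0.0751% below in untreated LN, 0.0619% and 0.164% after CFA, and 0.265% and 0.0972% after CFA+PTX. Without regard to the criterion, H3RKO was above WT in 43 of the 99 in untreated LN, 55 after CFA and 57 after CFA+PTX. The rule had removed the genes that followed Pip over the same arrays, which lowers the number of higher genes that can be left after CFA+PTX, so the counts describe the genes left and not the gland lists as a whole. In untreated LN 0 were higher and 1 lower in H3RKO, Krt19, a keratin of duct epithelium, which was at 6.89 and 8.40 in the WT pools and at 5.45 and 5.91 in the H3RKO pools (log2 difference -1.97, standard error 0.48, limma unadjusted p = 0.00749). After CFA 0 were higher and 0 lower. After CFA+PTX 0 were higher and 1 lower, Foxa1, a transcription factor of several epithelia, at 5.22 in H3RKO against 6.72 in WT (log2 difference -1.5, standard error 0.24, limma unadjusted p = 0.000991, adjusted p = 0.679). No gene of the 99 passed the adjusted limma p in these comparisons. An unadjusted limma p under 0.05 was found for 7 of the 99 in untreated LN, 0 after CFA and 4 after CFA+PTX, beside 5.43%, 3.38% and 3.24% of all probe sets, and for 11 in the model over all treatments, beside 3.64%.

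The widest gaps after CFA+PTX among these genes passed or missed the thresholds with the pools used for the spread. Prol1 was 3.51 higher in H3RKO (standard error 1.43, limma unadjusted p = 0.0522), the Klk1 probe set with r of 0.88 3.48 higher (standard error 1.65, limma unadjusted p = 0.0826) and Prpmp5 2.98 higher (standard error 2.14, limma unadjusted p = 0.217). With 1 untreated pool of either genotype left out, these differences were the same, since the untreated pools enter only the spread. The unadjusted limma p was then lower for each of these genes, and no adjusted p was under 0.05. For each gene the drop was larger without a WT pool than without an H3RKO pool. Leaving out an H3RKO pool hardly moved the p of the Klk1 probe set and Prpmp5. The unadjusted p of Prol1, the Klk1 probe set and Prpmp5 was higher without moderation, and also with an intensity trend and robust moderation. The standard errors of the fit with all pools rest on the spread of the untreated pools, which in WT was itself 2.76 for Prol1 and 3.74 for that Klk1 probe set. Limma joins the spread between these pools (2 residual degrees of freedom) with the spread over all probe sets (3.58 prior degrees of freedom). No treated group had a replicate, so the p-values do not measure the spread between treated pools.

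Markers of other tissues were set beside the members. The pancreas, which also makes amylase, left no such pattern: the mean of its 19 measured genes was 5.46 to 5.66 over the arrays and no gene ranged over more than 0.51. The mean of the skin list (10 genes) was 5.13 to 5.27 and that of the milk list (8 genes) 5.0 to 5.29, and in the milk list the casein genes Csn3 and Csn2 ranged over 1.83 and 1.56, with r of -0.07 and -0.63 to Pip. Muscle genes (11) were highest in H3RKO untreated pool 1, at a mean of 6.30, and were at 5.91 in WT CFA+PTX and 5.34 in WT untreated pool 1. White fat genes (8) had a mean of 9.17 to 9.99 and were highest in WT untreated pool 1.

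Brown fat was the tissue list that also had its lowest mean in WT CFA+PTX, at 7.03, beside 9.10 in WT untreated pool 1, 7.76 in WT untreated pool 2 and 8.40 to 9.63 in the other 5 arrays. Ucp1, the uncoupling protein that marks brown fat, was at 7.58 in WT CFA+PTX and at 9.14 to 11.34 in the others. Its order thus differed from that of the members, in that WT untreated pool 1 was not low, and the part of brown fat in the result was not tested. The B cell list was also lowest in WT CFA+PTX, by 0.27 from its highest array, and the plasma cell list by 0.31. The sex-linked genes (4) are given singly, since a mean would mix Xist, a transcript of female cells, with Y-linked genes. Xist (r of -0.61) was highest in WT CFA+PTX, at 13.11, and was at 12.99 and 12.55 in the untreated WT pools. The Y-linked Eif2s3y, Kdm5d and Uty ranged over 0.62, 0.64 and 0.275, with r of -0.03, 0.29 and -0.30. The pools held both sexes, and the part of their mix in the result was not tested.

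Genes of epithelial structure shared the order of the members in part. Of the 19, 5 were lowest in WT untreated pool 1, 5 in WT CFA+PTX, 5 in H3RKO untreated pool 1, 3 in H3RKO untreated pool 2 and 1 in WT CFA. Krt8 and Krt18, the keratins of simple epithelia, were highest in WT untreated pool 2, at 8.91 and 8.86. Krt8 was lowest in H3RKO untreated pool 1, at 6.85, and Krt18 in WT untreated pool 1, at 6.86, as were the adhesion genes Cdh1 at 5.10, Cldn7 at 5.14, Dsp at 4.24 and Epcam at 7.53. The mean of the 19 genes was 6.55 in H3RKO untreated pool 1, 6.62 in WT untreated pool 1 and 6.81 in WT CFA+PTX, with 7.33 as the highest, and the part of epithelial cells in the result was not tested.

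**Figure D4:**
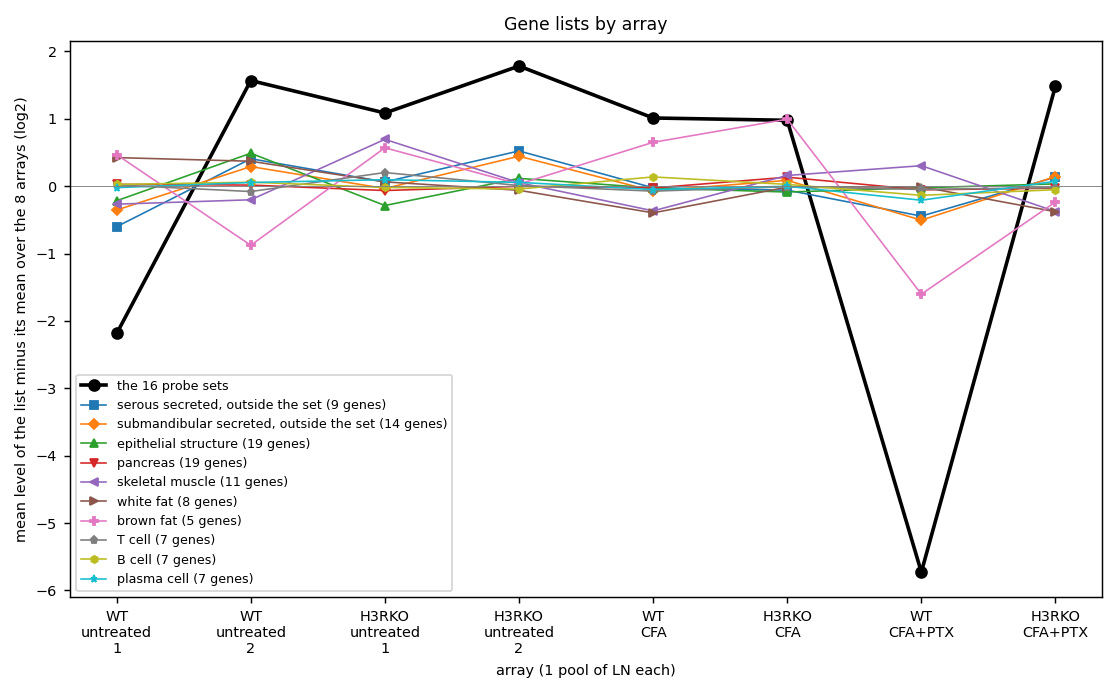
Mean log2 level of gene lists in each of the 8 arrays, minus the mean of the same list over the arrays, so that 0 is the average array, with the 16 member probe sets in black and the number of genes of each other list in the legend. Lines join the arrays for reading. The members reach -5.73 in WT CFA+PTX and -2.19 in WT untreated 1, while brown fat reaches -1.60 in WT CFA+PTX and the T cell, B cell, plasma cell and pancreas lists stay between -0.21 and 0.20.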

How the data were processed

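Total RNA of LN pools was hybridized to Affymetrix mouse expression arrays, 1 array for each pool. The authors corrected, normalized and summarized the probe intensities with RMA and deposited 1 log2 level for each probe set, and no scanner files were used here. Control probe sets (64 of 22690) were set aside. Of all probe sets, 20380 pair with 1 gene in the platform annotation, 691 with several and 1555 with none. The number of arrays limits the precision.

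Members were found with the range and Pearson r given in the report. Members, gene lists and role groups were chosen with earlier results of these data known. Named genes were Pip, Smr3a, Bpifa2, the members of largest range, of highest r and of the lists, the 4 probe sets on each side of a threshold, up to 4 genes of largest range in each list, and the markers of other tissues. Prpmp5, Mup5, Foxa1, Fxyd3, Cldn7, Cdh1, Epcam, the serous genes of narrow range and some genes of the plots were named after their values were seen. A list counts a gene by its probe set of highest mean.

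The study took p-values from an ANOVA. Here, genes outside the set were compared with limma 3.58.1 in R 4.3.3, fitting 1 mean per group over all 8 arrays and all 22626 probe sets, and Benjamini-Hochberg adjustment. Both residual degrees of freedom come from the untreated pairs, and each treated pool is assumed to vary like them. The linear model of the methods without moderation, other normalizations, filters, thresholds and left-out arrays were alternatives. The code was tested on simulated data. Start regions came from a RefSeq table of build GRCm38.p6.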

Additional observations from a re-analysis of the deposited data

How the results depend on the processing

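The set held 16 probe sets under a second quantile normalization, centring on array medians and a filter on dim probe sets, and 11 to 23 under the other thresholds, anchors and probe set filters. With Spearman rho in place of Pearson r it held 52, of which 14 were among the 16. Leaving out 1 array at a time gave 16 to 27, and leaving out both low WT arrays 8, with 2 of the 16. The median difference after CFA+PTX, 7.80, was 6.24 with r of at least 0.85, 7.39 with a range of at least 1 and 7.39 with 1 probe set per gene, because these add or drop members. The median difference between the WT untreated pools, 3.78, was 3.69 to 3.83 under the alternatives run. Its shifts were smaller than a replicate spread of 0.36, taken from the untreated H3RKO pools. The difference is itself a gap between replicate pools, so its size is not judged by that spread.

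Counts of probe sets meeting the criterion depended on the moderation and on single arrays. Ordinary p-values gave 15 in untreated LN, 16 after CFA and 30 after CFA+PTX, against 34, 51 and 82 with limma. Leaving out 1 untreated pool gave 44 to 115, 53 to 56 and 89 to 109, the 115 without WT untreated pool 2. Same-numbered untreated pools had deviations from their group means with a correlation of 0.123 over all probe sets. With 2 pairs this cannot show whether the replicate numbers pair the samples, so a replicate block is given as an alternative only. It gave 62 in untreated LN and 128 after CFA+PTX, and within 1.5 times after CFA. Over all treatments, 0 became 1 under quantile normalization, 1 under the filter on dim probe sets, and 0 to 6 without 1 array. The cause of these shifts was not tested. The gland genes tested singly after CFA+PTX had been chosen for meeting the criterion there or for a high r with Pip over the same arrays. Their difference compares 1 pool with 1 pool, and most alternatives could not change it, so a reversal was hardly possible. The counts and p-values that follow are therefore no separate support. For the 11 gland genes tested singly after CFA+PTX, 90 of 116 alternatives kept the side of the criterion, 26 passed it newly, for 8 genes led by Prol1 with 7, and 0 reversed. Under the replicate block Prol1 alone of these genes also passed after adjustment (limma adjusted p = 0.0285, unadjusted 1.13e-05), and the Klk1 probe set and Prpmp5 had an unadjusted limma p of 0.00362 and 0.0284. Without moderation, and also with an intensity trend and robust moderation, the unadjusted p of Prol1, this Klk1 probe set and Prpmp5 was higher than in the main fit. With 1 pool in each treated group and arrays that share an upper end, the size of the differences between pools is known no better than the spread of the untreated pools allows.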
